A study of Mus musculus with 20 samples.

Results

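The 44 genes described here encode proteins that copy DNA or carry a cell through mitosis, and they were taken by name from a list: 12 of origin licensing and the replicative helicase, 9 of the replication fork and nucleotide supply, 10 cyclins and kinases, 10 of the spindle, checkpoint and chromosomes, and 3 transcription factors. They were 44 of 21631 protein-coding genes placed on the mouse build GRCm38. A gene counted as called if accessible chromatin had been reported no more than 1 kb from either of its ends in that library. The data are ATAC-seq peak lists, which record where a transposase cut open DNA, from C2C12 cells, an established line of mouse myoblasts that can be induced to form muscle. The cells were wild type (WT) or knocked out for Setd2 (KO), a methyltransferase of histone H3 lysine 36, and were taken at day 0 (D0), day 1 (D1) and day 5 (D5); from D1 on, cells in control medium (CTL) stood beside cells restricted for methionine (MR). The question of the series is whether methionine availability changes chromatin as cells differentiate, with Setd2 and without it.

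Each of the 10 groups held 2 libraries. In WT these were replicates 1 and 2. In KO they came from 2 lines with 1 library each per condition, so the spread within a KO group includes the difference between lines. How Setd2 was disrupted is not given in the sources used here. Nothing in the labels says whether WT replicates were separate cultures, and the p-values below measure only the spread between libraries, which may be technical.

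Before a cell divides, the origin recognition complex, Cdc6 and Cdt1 load the Mcm2 to Mcm7 ring onto DNA, and E2F factors switch on the genes of this step and of the fork. Cyclin B with Cdk1 then drives mitosis, and many mitotic genes carry a CCAAT box bound by NF-Y together with a cell cycle homology region, the element through which the DREAM and MuvB complexes with Foxm1 and Mybl2 act. Myoblasts leave the cell cycle as they fuse into myotubes, and the genes of both programmes are known to be silenced then.

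The lists of 18 libraries held 20847 to 69881 peaks at an inferred background of 1.42 to 5.88 fragments per position. The D5 lists of KO line 1 held 644 peaks in CTL and 1881 in MR, at backgrounds of 0.128 and 0.101. They are shown but enter no test unless said otherwise, so KO at D5 rests on line 2 alone. Background in KO line 2 was 1.42 to 2.76 over its 5 libraries, below the 3.17 to 5.88 of the 10 WT libraries. Of 8 markers of myoblasts and muscle, 3 (Des, Cdh15 and Chrna1) were called in all 18 libraries, Myod1 and Itga7 in 17 and Myf5 in none. For Myog, calls were present in 8 of the 10 WT lists and in 0 of the 8 from KO, and for Mymk in 10 of 10 and 4 of 8. None of 15 markers of fibroblasts, adipocytes, immune cells, epithelium and neurons was called in all 18, although Pparg and Tubb3 were called in 17. Setd2 itself was called in all 18, which does not test the deletion.

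In WT, most members were called in every group, and the fewest in D5 CTL. In WT at D0 41 and 42 of the 44 members were called, or 94.3% ± 1.61 (SD, n = 2), when 47.0% ± 2.22 of all genes were. In WT at D1 the share was 93.2% ± 3.21 in CTL and 93.2% ± 0 in MR, with 41 members called in each MR library. In WT D5 CTL it was 71.6% ± 1.61, with 32 and 31 members called, and in WT D5 MR 89.8% ± 1.61, with 39 and 40. The libraries of WT D5 CTL therefore lay below every other WT library, without overlap. The share of all genes was also lowest there, at 35.3% ± 0.977, against 48.4% ± 2.80 in WT D1 CTL, 51.9% ± 1.42 in WT D1 MR and 44.4% ± 0.206 in WT D5 MR. The WT D5 CTL lists were the shortest of WT, with 22465 and 20847 peaks at backgrounds of 5.29 and 5.88, and the WT D5 MR lists had 39538 and 39263 peaks at 5.17 and 5.45. At an equal length of 20000 peaks per list, members were still fewer in WT D5 CTL (25 and 29) than in WT D5 MR (33 and 34). Fewer cells with an open promoter, less opening per cell and a list of fewer or weaker peaks cannot be told apart in these pooled cells.

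In KO the 2 lines differed. At D0 line 1 called 42 members and line 2 called 33. Beside them stood 52.0% and 35.3% of all genes, from lists of 63530 and 30629 peaks. At D1 both lines called 42 in CTL, and 40 and 36 in MR. The shares of all genes in line 1 and line 2 were 50.7% and 46.7% in D1 CTL, and 46.7% and 40.6% in D1 MR. At D5 line 2 called 37 in CTL and 32 in MR, while the sparse lists of line 1 called 2 and 4. Line 2 thus called more members in D5 CTL than either WT library (32 and 31), and fewer in D5 MR than either (39 and 40). The percentages of all genes in line 2 were 39.1% in D5 CTL and 34.3% in D5 MR, from lists of 29963 and 22062 peaks. At 20000 peaks per list line 2 called 30 members in D5 CTL and 31 in D5 MR. The WT libraries then called 25 and 29 in D5 CTL, and 33 and 34 in D5 MR. Line 2 thus lay above WT in CTL, by 30 members against 29 in the nearer library. It lay below WT in MR, without a fall from CTL to MR. Of all genes, 30.8% were called in line 2 in D5 CTL at that length and 31.9% in D5 MR. In WT the shares of all genes were 33.7% and 33.9% in D5 CTL, and 31.2% and 31.6% in D5 MR. With 1 library a group no test was possible.

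**Figure D1:**
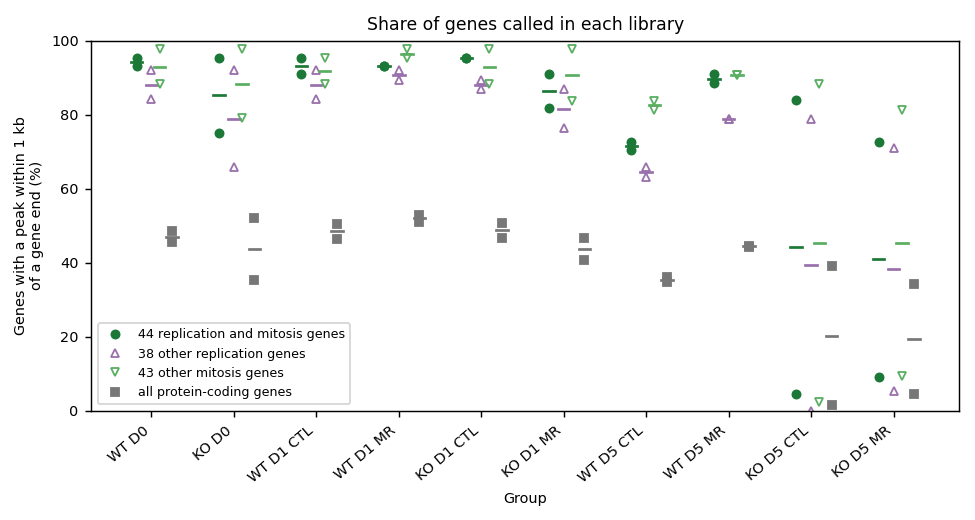
Percent of genes called (vertical axis) in each of the 10 groups (horizontal axis), for the 44 members, 38 other replication genes, 43 other mitosis genes and all 21631 protein-coding genes. Each point is 1 library and each bar the mean of the 2 libraries; WT D5 CTL members sit at 72.7% and 70.5%, and the 2 sparse KO line 1 lists at D5 lie below 10%.

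At that equal length the 2 groups of WT D5 libraries again did not overlap in the number of members. In contrast, all genes went the other way, with 33.7% and 33.9% called in WT D5 CTL and 31.2% and 31.6% in WT D5 MR. WT D1 CTL libraries held 28 and 30 members among their 20000 peaks, and WT D0 libraries 31 in each.

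Called members also stood high in their lists. The position of a gene's strongest peak is given as the percent of the list ranked at or above it, so that low values are strong peaks. The median over called members was 26.7% and 20.6% in the WT D0 libraries, 24.9% and 24.9% in WT D1 CTL, 15.1% and 17.2% in WT D1 MR, and 26.3% and 24.8% in WT D5 MR. It was 46.4% and 42.9% in WT D5 CTL, where the median of all called genes was 37.3% and 37.4%. Members ranked ahead of all called genes in 16 of 18 libraries, and the 2 exceptions were these WT D5 CTL libraries. In KO the medians of line 1 and line 2 were 11.1% and 29.4% at D0, 16.8% and 25.02% in D1 CTL, and 19.8% and 31.2% in D1 MR. At D5 those of line 2 were 33.9% in CTL and 36.0% in MR. The D5 lists of line 1 gave 49.4% over 2 members in CTL and 12.6% over 4 in MR. These positions describe each list and are set beside all genes of the same list; lists of different length show no change by them.

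Of the 44 members, 25 (56.8%) were called in all 18 libraries, against 25.7% of all genes, 17 were called in some, and 2 in none, Orc1 and Rrm2. No peak lay at either end of 42.2% of all genes in any of the 20 libraries. The strongest peak lay at the start end in every called library for all 33 members that were called and whose strand was known.

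**Figure D2:**
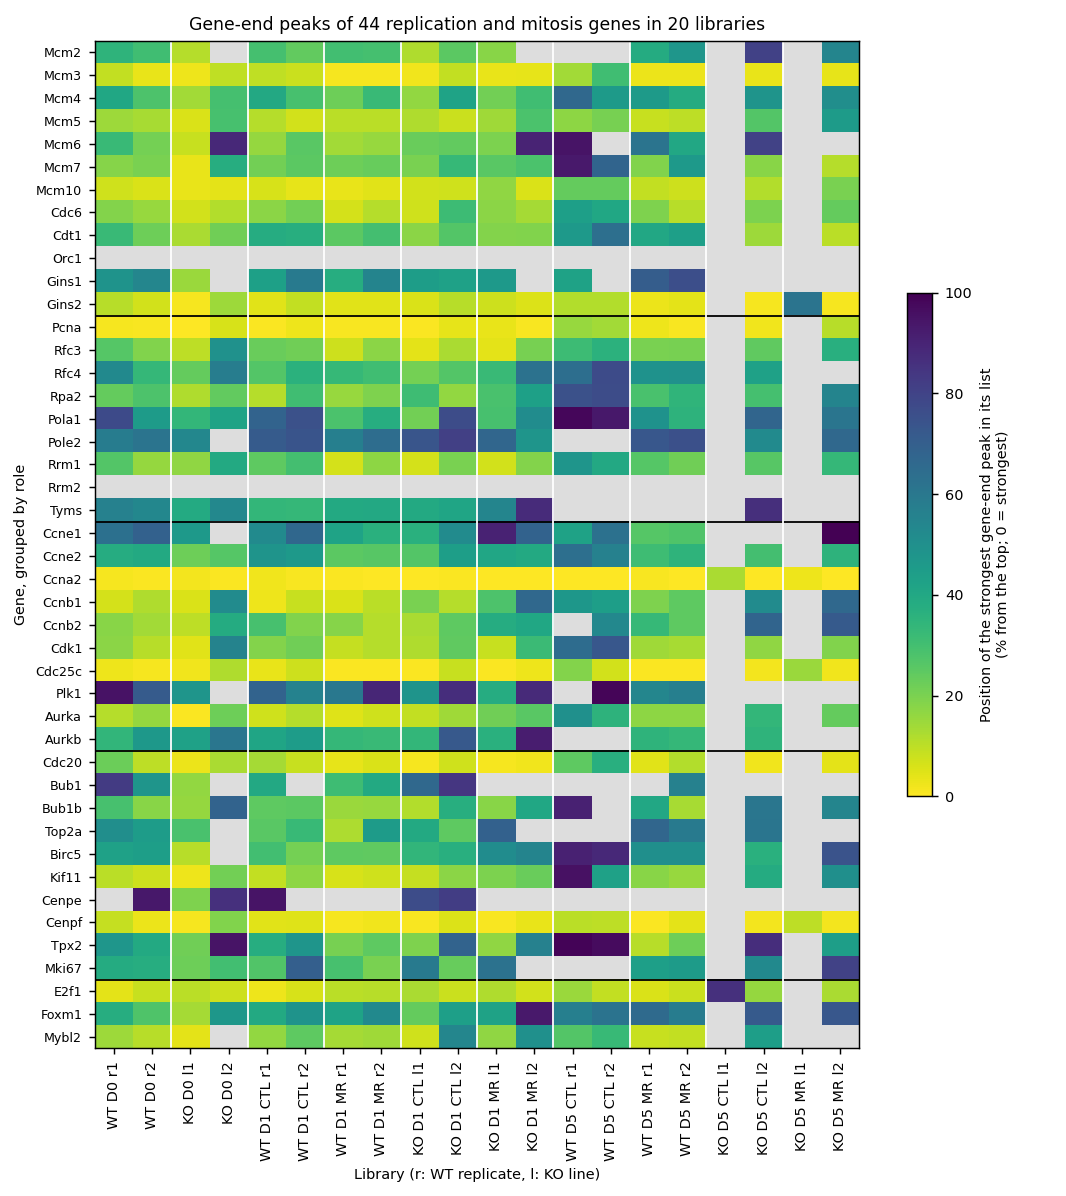
Position of the strongest gene-end peak of each member (rows, grouped by role) in each of the 20 libraries (columns), as percent of its list from the top; yellow is strongest, dark violet weakest, grey marks no call. Ccna2 is coloured in all 20 columns, Orc1 and Rrm2 in none, and the WT D5 CTL columns hold more grey cells than the WT D5 MR columns.

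Among the licensing and helicase genes, Mcm3, a subunit of the ring, was the strongest, with a median position of 3.51% over 18 libraries. Mcm10, which helps to start the helicase, followed at 7.10% behind Gins2, a subunit of the GINS clamp of the helicase, at 5.59%. Mcm2, Mcm4, Mcm5, Mcm6 and Mcm7, the other ring subunits listed, had medians of 29.7%, 35.2%, 12.4%, 24.9% and 22.6%. Mcm4 shared its peak with an end of the neighbouring gene Prkdc and Mcm7 with Ap4m1, so these calls cannot be assigned to 1 gene. Gins1, the partner of Gins2, was called in 13 of 18 libraries.

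Orc1, the largest subunit of the origin recognition complex, was uncalled at the ends of its gene model and open at its transcript start. The nearest peak lay 3148 bp or more from either end of the model, which spans chr4:108575705-108616030. A peak lay within 1 kb of the annotated start of its transcript, at 108579454, in 18 of 18 libraries, with −log10 q from 8.16 to 40.2. Rrm2, the small subunit of ribonucleotide reductase, had no peak within 20753 bp of a gene end in any library, and none within 26331 bp of its annotated start on chromosome 12. The large subunit, Rrm1, was called in all 18.

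At the fork, Pcna, the sliding clamp that holds polymerases on DNA, ranked among the strongest members. Among the 20000 strongest peaks it ranked 601 and 390 in WT D0, 424 and 1131 in WT D1 CTL, and 615 and 517 in WT D1 MR. It ranked 3497 and 2903 in WT D5 CTL, and 1014 and 386 in WT D5 MR. Pcna was thus called in every one of these libraries with its weakest ranks in WT D5 CTL, and it shared its peak with Cds2. Pola1, the catalytic subunit of the priming polymerase, stood at a median of 50.2% and Pole2, a subunit of the leading-strand polymerase, at 66.1%. Both were among the 5 weakest members.

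Ccna2, cyclin A2, which serves both S phase and mitosis, had the highest peak of all members, with a median position of 0.359%. It was the only member called in all 20 libraries, the sparse lists included. Among the 20000 strongest peaks it ranked 16 and 15 in WT D5 CTL, and 436 and 116 in WT D5 MR. Ccna2 thus had a top peak in the libraries where other members were uncalled. The peak was shared with an end of Bbs7. Cdc25c, a phosphatase that activates Cdk1, stood at 2.27%, and Aurka, a spindle kinase, at 16.3% with a peak shared with Cstf1. Plk1, a mitotic kinase, and Ccne1, cyclin E1 of the entry into S phase, were weak at 64.1% and 51.9%. Cdk1, the mitotic kinase itself, was called in all 18 libraries. Among the 20000 strongest peaks it ranked 7561 and 5258 in WT D0, 14539 and 15199 in WT D5 CTL, and 5580 and 5208 in WT D5 MR.

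Cenpf, a kinetochore protein, stood at 3.002% and was called in 19 of 20 libraries. In contrast, Cenpe, the kinetochore motor, was called in 6 of 18 libraries and had a median of 84.1%. Its calls were WT D0 replicate 2 (−log10 q 2.21), WT D1 CTL replicate 1 (2.22), both KO lines at D0 (25.9 and 2.47) and both in D1 CTL (3.70 and 2.85). Bub1, a spindle checkpoint kinase, was called in 9 of 18, in 5 of them WT at D0 or D1. In KO, Bub1 and Cenpe were called in both D1 CTL libraries and in neither D1 MR library, a pattern that 1.46% of all genes showed and that 2 of 44 members showed. No member showed the reverse, which 0.0416% of all genes did. Bub1 was also the 1 member called in both WT D1 MR libraries and in neither KO D1 MR library, as 4.29% of all genes were. Of the factors, E2f1, which activates S phase genes, stood at 8.80% and was called in 19 of 20 libraries. Foxm1, which activates mitotic genes, was called in all 18 at 47.9% with a peak shared with Rhno1, and Mybl2, its partner in the MuvB complex, in 16.

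The comparison of media at D5 asked which members were absent from control cells and present under restriction. In WT, 5 members were called in neither D5 CTL library and in both D5 MR libraries: Mki67, Mcm2, Pole2, Aurkb and Top2a. They were 11.4% of the 44 members, and 5.92% of all genes (1280) showed this pattern. No member showed the reverse, which 33 genes (0.153%) did. Since members were called more often at the outset, the same count was taken among genes called in both WT D1 CTL libraries. There it was 5 of 40 members (12.5%) and 1058 of 9966 genes (10.6%), so among genes open at D1 the members' share was close to the background. Of the other members, 29 were called in all 4 WT D5 libraries and 4 in neither medium. With 2 libraries against 2 the smallest exact p is 0.333, so no test was made.

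Mki67 encodes the Ki-67 protein that coats mitotic chromosomes and is used as a marker of cycling cells. Its peak had −log10 q of 9.61 and 11.4 in WT D0, 14.4 and 4.08 in WT D1 CTL, 15.1 and 19.7 in WT D1 MR, and 8.35 and 7.16 in WT D5 MR. In KO it was called in both lines at D0 (23.2 and 8.60) and in D1 CTL (6.25 and 12.1), in line 1 only in D1 MR (6.13), and in line 2 at D5 in CTL (4.41) and MR (2.16). Mki67 was therefore called in all WT libraries but those of D5 CTL, where 1 KO line kept it. These −log10 q values are the authors' own, and each says how clear a peak was in its own list.

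Mcm2 had −log10 q of 10.5 and 14.2 in WT D0, 13.5 and 13.2 in WT D1 CTL, 14.6 and 14.3 in WT D1 MR, and 9.61 and 6.73 in WT D5 MR. In KO line 1 the values were 36.6 at D0, 30.6 in D1 CTL and 23.3 in D1 MR. Line 2 had 11.4 in D1 CTL, 2.38 in D5 CTL and 3.71 in D5 MR, and no call at D0 or in D1 MR. Mcm2 was thus uncalled in 2 KO line 2 libraries before D5 as well as in WT D5 CTL.

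Pole2 was the weakest of the 5, with −log10 q of 6.004 and 6.04 in WT D0, 4.69 and 3.66 in WT D1 CTL, 6.49 and 5.51 in WT D1 MR, and 4.01 and 3.25 in WT D5 MR. KO line 2 had 4.46 in D5 CTL and 2.95 in D5 MR. The Pole2 peak was shared with an end of Klhdc1. The lowest −log10 q in any list was 1.0004, so the Pole2 calls stood clear of the limit of the lists by less than those of the other members of the set in both WT D5 MR libraries.

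Aurkb encodes the kinase of the chromosomal passenger complex. Its values were 10.8 and 8.87 in WT D0, 9.74 and 7.46 in WT D1 CTL, 13.01 and 13.1 in WT D1 MR, and 10.5 and 9.80 in WT D5 MR. In KO line 2 it was called in D5 CTL (6.596) and not in D5 MR. In the WT D1 CTL replicate 1 list its peak lay at chr11:69045548-69045707. The medium in which Aurkb was uncalled at D5 thus differed between WT and KO line 2.

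Top2a encodes topoisomerase II alpha, which untangles sister chromosomes. Its values were 7.17 and 9.37 in WT D0, 15.1 and 10.3 in WT D1 CTL, 29.7 and 9.06 in WT D1 MR, and 4.62 and 4.97 in WT D5 MR. KO line 2 had 3.65 in D5 CTL and no call at D0 or in either MR library. Like Aurkb, Top2a was called in KO line 2 in D5 CTL and not in D5 MR.

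**Figure D3:**
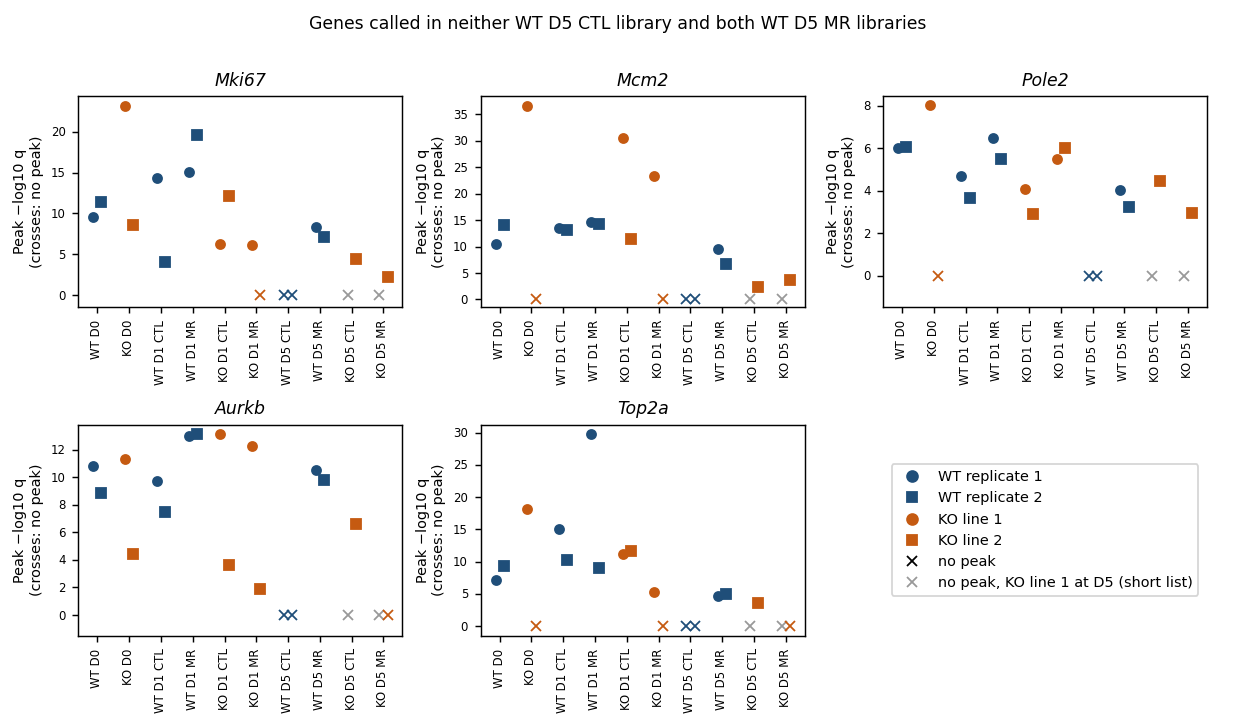
The −log10 q of the gene-end peak (vertical axis, the authors' value) in each library of the 10 groups (horizontal axis) for the 5 genes called in neither WT D5 CTL library and in both WT D5 MR libraries. Blue is WT, orange KO, circles are replicate or line 1, squares replicate or line 2, crosses mark no peak and grey crosses the sparse D5 lists of KO line 1; each value describes a peak in its own list, and crosses in WT stand at D5 CTL alone.

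The set changed with the peaks admitted. At the 20000 strongest peaks of each list it held 5 members, Mki67, Mcm2, Aurkb, Bub1b (a checkpoint kinase) and Tpx2 (a spindle assembly factor), or 11.4%, against 276 genes (1.28%). The reverse held 1 member, Foxm1, against 599 genes (2.77%). Among genes within the 20000 peaks of both WT D1 CTL libraries it held 2 of 27 members, Mcm2 and Bub1b (7.41%), and 109 of 5855 genes (1.86%). Mki67, Mcm2 and Aurkb were in the set both with all peaks and with the 20000 strongest. Of these, only Mcm2 was also within the 20000 peaks of both WT D1 CTL libraries. There Mki67 was outside them in replicate 2, and Aurkb in both replicates. A minimum −log10 q of 2 gave 8 members (18.2%), adding Mcm6, Plk1 and Tpx2, beside 5.87% of all genes. With only WT replicate 2 kept it held 9 members (20.5%) beside 10.4% of all genes, and with only WT replicate 1 kept 7 members (15.9%) beside 9.07%. Tpx2 was called in WT D5 CTL at −log10 q of 1.55 and 1.75, and in WT D5 MR at 24.7 and 14.04.

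Tyms, thymidylate synthase, which makes the thymidine precursor of DNA, was the 1 member called in both WT D1 MR libraries and in neither WT D5 MR library, a pattern of 4.98% of all genes. Its −log10 q was 6.29 and 7.35 in WT D0, 11.9 and 10.0 in WT D1 CTL, and 10.8 and 10.6 in WT D1 MR. At D5 it was uncalled in all 4 WT libraries and in KO line 2 in MR, and had 2.03 in KO line 2 in CTL. Between D1 and D5 in CTL, Tyms and the 5 genes above were called in both WT D1 libraries and in neither WT D5 library, 6 of 44 members (13.6%) beside 8.93% of all genes. Among genes called in both WT D1 CTL libraries these were 6 of 40 members and 1931 of 9966 genes, a smaller share for the members. At 20000 peaks per list, 4 members were called at D1 and not at D5 in this way, Mcm2, Mcm6, Bub1b and Top2a, beside 1.63% of all genes. Among genes within those peaks in both WT D1 CTL libraries they were 4 of 27 members and 352 of 5855 genes. The reverse held 3 members, Ccne1, Ccne2 and Foxm1, beside 4.22%, so at equal list length members lay on both sides.

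The promoters of 4 of the 5 genes and of Tyms are shown because they carry the pattern of calls at D5. Each run is the 250 bases before the annotated start in RefSeq (GRCm38.p6), 5′ to 3′ on the strand of the gene. Capitals mark CCAAT or its reverse complement ATTGG, the NF-Y box, and TTTGAA or TTCAAA, the cell cycle homology region. The intervals, all on the minus strand, are chr7:135716380-135716629 for Mki67, chr6:88898781-88899030 for Mcm2, chr12:69228191-69228440 for Pole2, chr11:99024190-99024439 for Top2a and chr5:30073626-30073875 for Tyms.
Mki67: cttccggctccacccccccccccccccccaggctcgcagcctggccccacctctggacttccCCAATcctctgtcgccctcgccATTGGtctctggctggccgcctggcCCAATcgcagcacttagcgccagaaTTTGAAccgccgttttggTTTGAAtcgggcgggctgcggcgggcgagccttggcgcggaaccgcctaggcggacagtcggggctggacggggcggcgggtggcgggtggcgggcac
Mcm2: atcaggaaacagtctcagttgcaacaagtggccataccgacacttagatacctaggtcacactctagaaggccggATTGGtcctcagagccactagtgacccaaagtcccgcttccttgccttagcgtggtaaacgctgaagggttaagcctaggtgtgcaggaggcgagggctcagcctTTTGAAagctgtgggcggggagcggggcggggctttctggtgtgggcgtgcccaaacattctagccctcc
Pole2: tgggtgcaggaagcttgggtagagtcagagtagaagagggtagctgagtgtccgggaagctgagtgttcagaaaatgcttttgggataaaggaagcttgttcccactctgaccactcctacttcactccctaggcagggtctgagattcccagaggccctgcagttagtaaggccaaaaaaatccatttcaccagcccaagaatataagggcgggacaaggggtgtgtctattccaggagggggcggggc
Top2a: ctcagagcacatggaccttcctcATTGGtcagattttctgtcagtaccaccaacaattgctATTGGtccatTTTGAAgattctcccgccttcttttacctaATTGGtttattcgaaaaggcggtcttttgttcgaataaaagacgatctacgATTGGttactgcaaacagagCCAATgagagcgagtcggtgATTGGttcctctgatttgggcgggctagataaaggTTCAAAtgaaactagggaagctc
Tyms: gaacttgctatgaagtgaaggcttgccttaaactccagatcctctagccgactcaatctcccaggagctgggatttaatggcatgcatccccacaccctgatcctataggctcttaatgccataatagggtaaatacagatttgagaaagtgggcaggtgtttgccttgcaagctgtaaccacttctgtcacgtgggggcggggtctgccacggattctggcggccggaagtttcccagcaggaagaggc

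Mki67 held 3 CCAAT boxes and 2 TTTGAA elements in this stretch, and Top2a held 6 and 2. Mcm2 held 1 of each. Pole2 and Tyms held none of either here. The called peak overlapped these bases in 15 of 18 libraries for Mki67, 14 for Mcm2, 15 for Pole2, 13 for Top2a and 9 for Tyms. Where it did, it covered 63 to 250 of the 250 bases for Mki67, 66 to 250 for Pole2 and 52 to 250 for Top2a. For Mcm2 it covered 6 to 109 and for Tyms 12 to 75. The CCAAT box of Mcm2, at -175 bp from the start, was outside the peak in every library. A match is a description of letters and not a bound site.

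In the WT replicate 1 lists, peaks of members were close to the transcription start. In WT D1 CTL, 34 of the 35 members with an annotated start had a peak near it. The strongest such peak covered the start in 25 members, and its median centre lay at -63 bp. Mcm7 and E2f1, not counted in the 25, had a weaker peak over the start. In WT D5 CTL 25 members had a peak, the strongest covered the start in 16, and the median centre lay at -96.5 bp. In WT D5 MR the counts were 31 and 24, with a median centre at -94.5 bp. Fewer members of WT D5 CTL thus had their strongest peak over the start. The median centre lay upstream of the start in each of the 3 lists. These counts were not made over all genes. At gene ends, 50.4% of all genes were called in the WT D1 CTL list, 36.0% in WT D5 CTL and 44.2% in WT D5 MR. The lists held 60173, 22465 and 39538 peaks in the same order, and the part of list length was not tested. Median peak width of members was 204 and 174 bp in WT D5 CTL, and 244 and 224 bp in WT D5 MR, while that of all genes was 182 and 182 bp, and 257 and 246 bp.

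**Figure D4:**
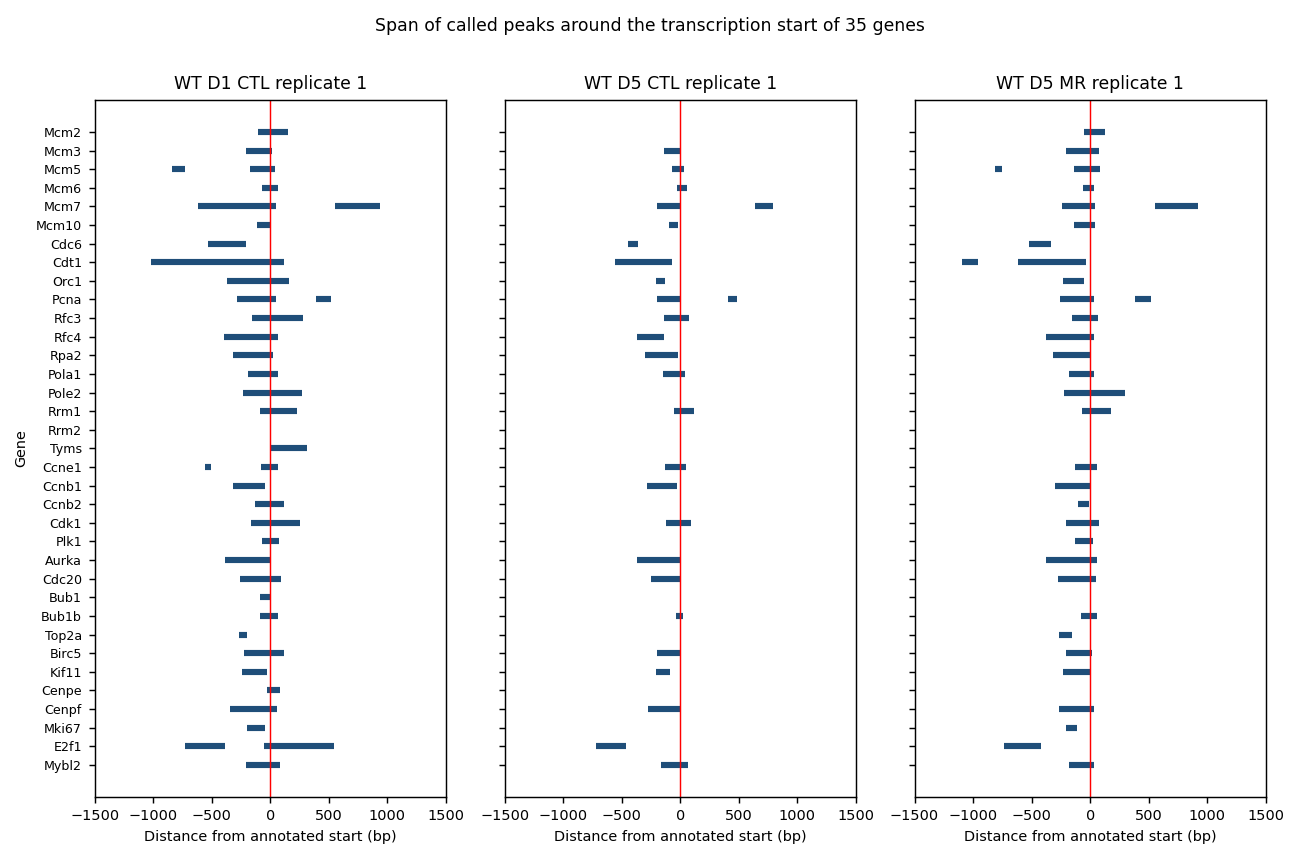
Span of each called peak (blue bars) around the annotated transcription start (red line, distance in bp with positive values inside the gene) for 35 members in the replicate 1 libraries of WT D1 CTL, WT D5 CTL and WT D5 MR. Members with a peak number 34, 25 and 31, and bars in the middle panel are fewer and shorter. The lists held 60173, 22465 and 39538 peaks in the same order.

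Each contrast was then tested gene by gene over all genes, with an exact permutation test in which libraries were exchanged within strata, and Benjamini-Hochberg adjustment. Calls gave little room, since most members were called nearly everywhere. Against D1, D5 left 1 member testable on calls, Tyms, called in 8 of 8 D1 libraries and 1 of 6 at D5. Its exact permutation p was 0.00926 and 0.0669 after adjustment over the 1298 genes testable, of which 0 passed (0%) and 709 (54.6%) had an unadjusted p under 0.05. For MR against CTL no member was testable on calls, and 0 of 218 genes passed (0%), with 16 (7.34%) unadjusted. For KO against WT the 1 testable member, Bub1, had an adjusted exact permutation p of 0.496, while 52 of 1631 genes (3.19%) passed and 604 (37%) had an unadjusted p under 0.05. For D1 CTL against D0 the smallest exact permutation p was 0.0556, so no gene was testable.

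The finer measure was the rank of the gene-end peak among the 20000 strongest peaks, where rank 1 is the strongest and a gene outside them was placed just after the last. A rank states the standing of a promoter relative to other peaks of its library and not its absolute opening. For MR against CTL, 0 of 33 testable members and 0 of 7069 genes passed (0%), while 9 members and 1319 genes (18.7%) had an unadjusted p under 0.05. The smallest p of this contrast is 0.00463, which an adjustment over this many genes rarely lets pass. The median difference of the tested members was -697 ranks and that of all tested genes -44.6, where negative is stronger in MR.

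Of the 9, 8 ranked stronger in MR. Cdc25c had a rank of 387 ± 276 under MR and 2272 ± 1574 in CTL (mean ± SD of 7 libraries each, exact permutation p = 0.0139, adjusted 0.161). Mcm3 had 1123 ± 268 and 3615 ± 2080 (exact permutation p = 0.0185, adjusted 0.180). Cdk1 had 6120 ± 2400 and 10605 ± 3685 (exact permutation p = 0.0231, adjusted 0.197). Cdc20, the activator of the anaphase complex, and Cenpf each had an exact permutation p of 0.0185, with mean differences over strata of -1943 and -847 ranks. Cdc6, Gins2 and Tpx2 were the others. None of these differences passed the adjusted threshold.

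Rfc4, a subunit of the clamp loader, was the 1 of the 9 that ranked weaker in MR, at 18870 ± 1629 against 14442 ± 1751 (SD, 7 libraries per medium). It was weaker in 4 of 4 strata, with the smallest p the design allows (exact permutation p = 0.00463, adjusted 0.132). Mcm5, Birc5 (survivin, a passenger protein), Ccnb1 and Top2a were next in this direction, with differences of 1558, 2250, 2077 and 1285 ranks and unadjusted exact permutation p from 0.134 to 0.500.

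For D5 against D1, 0 of 35 testable members and 0 of 7461 genes passed (0%), with 5 members and 2038 genes (27.3%) at an unadjusted p under 0.05. Kif11, the motor that separates spindle poles, ranked 10762 ± 5013 at D5 (n = 6) and 6614 ± 2033 at D1 (n = 8), weaker in 4 of 4 strata. Mcm6 ranked 19286 ± 1753 and 11839 ± 3689, also weaker in 4 of 4. In the opposite direction, Ccne2, cyclin E2, ranked 11450 ± 2593 at D5 and 17815 ± 2517 at D1. Cdt1 and Gins2 also ranked stronger at D5, with mean differences over strata of -5135 and -2169 ranks. Kif11, Ccne2, Cdt1 and Gins2 each had the smallest p possible (exact permutation p = 0.00309, adjusted 0.0624), and Mcm6 had 0.00926 (adjusted 0.0781). Ccnb1, Pcna and Top2a followed on the weaker side with differences of 3899, 875 and 3290, and Ccne1 and Aurkb on the stronger side with -4528 and -3550, with exact permutation p from 0.0556 to 0.139. Licensing genes thus lay on both sides.

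For D1 CTL against D0 no rank difference could be tested. The differences furthest towards weaker at D1 were those of Foxm1 (5400), Cdt1 (5162), Mcm7 (5087), Ccne2 (4576.5) and Cdc6 (3893). Rfc4 (-2859), Top2a (-4112), Rfc3, another clamp loader subunit (-2578), Ccnb1 (-1385) and Cdc20 (-1013) lay towards stronger.

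For KO against WT 3 of 35 testable members passed, Cdt1, Cdc20 and Ccnb1, beside 994 of 7923 genes (12.5%), so the members' share was near the background. Of the genes, 515 ranked weaker (6.5%) and 479 stronger (6.05%) in KO. At an unadjusted p under 0.05 stood 7 members and 2512 genes (31.7%). The 8 KO libraries came from 2 lines whose deviations correlated at 0.323 to 0.438, and the test exchanged them as if independent, so its p-values are too small. With lines as the unit, 2 against 2, an exact p could not fall below 0.333. Myog and Mymk, called less often in KO, and the lower background of KO line 2 moved with genotype, and their part in these ranks was not tested. The promoters of the 3 genes are shown from the same source and with the same capitals, at chr8:122567765-122568014 (plus strand) for Cdt1, chr4:118437344-118437593 (minus) for Cdc20 and chr13:100786487-100786736 (minus) for Ccnb1.
Cdt1: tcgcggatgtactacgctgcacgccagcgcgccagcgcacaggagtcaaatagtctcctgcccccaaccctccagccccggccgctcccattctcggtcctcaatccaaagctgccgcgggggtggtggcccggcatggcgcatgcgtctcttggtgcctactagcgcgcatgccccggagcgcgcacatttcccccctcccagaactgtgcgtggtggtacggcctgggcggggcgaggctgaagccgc
Cdc20: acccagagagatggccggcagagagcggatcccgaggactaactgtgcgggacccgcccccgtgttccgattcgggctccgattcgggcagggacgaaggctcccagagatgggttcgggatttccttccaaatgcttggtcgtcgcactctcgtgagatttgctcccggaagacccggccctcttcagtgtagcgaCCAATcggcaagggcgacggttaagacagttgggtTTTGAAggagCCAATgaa
Ccnb1: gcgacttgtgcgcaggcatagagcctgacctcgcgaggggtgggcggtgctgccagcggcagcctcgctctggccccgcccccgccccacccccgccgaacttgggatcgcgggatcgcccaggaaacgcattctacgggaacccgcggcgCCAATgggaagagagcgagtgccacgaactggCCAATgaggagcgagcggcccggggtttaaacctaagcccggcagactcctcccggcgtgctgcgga

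Cdc20 held 2 CCAAT boxes and 1 TTTGAA element, Ccnb1 2 CCAAT boxes, and Cdt1 neither. The peak overlapped these bases in 18 of 18 libraries for each of the 3 genes.

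Cdt1, which brings the Mcm ring to origins, ranked 13923 and 10860 in WT D0 and 8167 and 6612 in KO D0. In D1 CTL it was outside the 20000 peaks in WT replicate 1 and at 17063 in replicate 2, with 10687 and 12459 in KO. In D1 MR it ranked 17538 and 17262 in WT and 9079 and 6614 in KO. At D5 it ranked 10302 and 13201 in WT CTL, 15784 and 17076 in WT MR, and 4382 and 2248 in KO line 2 in CTL and MR. Every KO library ranked stronger than both WT libraries of its day and medium, 8 of 8. The mean difference over strata was -8613 ranks (exact permutation p = 0.000514, the smallest possible, adjusted 0.0162).

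Cdc20 ranked 9629 and 4858 in WT D0 and 1938 and 3939 in KO D0. In D1 CTL it ranked 8125 and 3815 in WT and 951 and 3420 in KO, and in D1 MR 2565 and 3256 in WT and 691 and 820 in KO. At D5 it ranked 5574 and 7666 in WT CTL, 1771 and 4448 in WT MR, and 696 and 924 in KO line 2. As with Cdt1, no KO library overlapped the WT libraries of its condition. The mean difference was -3671 ranks (exact permutation p = 0.000514, adjusted 0.0162).

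Ccnb1, cyclin B1, went the other way. It ranked 2844 and 5961 in WT D0 and 3571 and 15813 in KO D0. In D1 CTL it ranked 1432 and 3779 in WT and 12218 and 5221 in KO, and in D1 MR 3860 and 6063 in WT, with 13559 in KO line 1 and no place among the 20000 in line 2. At D5 it ranked 10548 and 9181 in WT CTL, 7572 and 9683 in WT MR, and 15520 and 14650 in KO line 2. It was weaker than the WT mean in 7 of 8 KO libraries, and the groups overlapped at D0 only. The mean difference was 6980 ranks (exact permutation p = 0.00154, adjusted 0.0234).

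Leaving out a replicate or line also left fewer arrangements. Without WT replicate 1, WT replicate 2 or KO line 2 the smallest exact permutation p was 0.00926, 0.00926 and 0.0370. Then 0 members and 0 genes passed in each case, and 4, 4 and 7 members had an unadjusted p under 0.05. Without KO line 1 3 members passed, Cdt1, Ccnb1 and Mybl2, while Cdc20 had an adjusted exact permutation p of 0.0532. Without KO line 2, Cdc20 and Ccnb1 were not among the members with an unadjusted exact permutation p under 0.05. Over these 4 omissions the mean difference lay between -6797 and -8838 for Cdt1, between -3211 and -4181 for Cdc20 and between 5793 and 8149 for Ccnb1.

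Neighbouring genes were set beside these, in a comparison chosen after the values were seen. Only genes placed among the 20000 strongest peaks in all 18 libraries were used. Over 209 such genes of chromosome 8 other than Cdt1, the median rank of a KO library minus the WT mean lay between -839.5 and 537 across the 8 KO libraries, and over the 19 within 3 Mb of Cdt1 between -516.5 and 1763. Over 213 genes of chromosome 4 it lay between -1493 and 311.5, with -1493 and -1313 in KO line 1 at D0 and D1 CTL, the direction of Cdc20 itself. Over the 23 near Cdc20 it lay between -716.5 and 288. Over 4 genes near Ccnb1 it lay between -2338 and 2019.5, and over the 100 genes of chromosome 13 the median lay between -236.75 and 1420.

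Of the other members, Mybl2 ranked 6992 ± 2650 in WT (n = 10) and 13230 ± 7302 in KO (n = 8), with an adjusted exact permutation p of 0.107. The lines differed here: line 1 ranked 2683, 4350 and 8074, and line 2 was outside the 20000 peaks in 3 of its 5 libraries. Mcm5 ranked weaker in KO by 2545 places (exact permutation p = 0.0360, adjusted 0.128). Ccne2, Rfc4 and Mcm4 lay towards stronger in KO, with mean differences over strata of -3487, -1632 and -3625 ranks and adjusted exact permutation p of 0.0836, 0.155 and 0.166. Ccne1 and Ccnb2, cyclin B2, ranked weaker by 3622 and 2833 (unadjusted exact permutation p = 0.111 and 0.182).

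**Figure D5:**
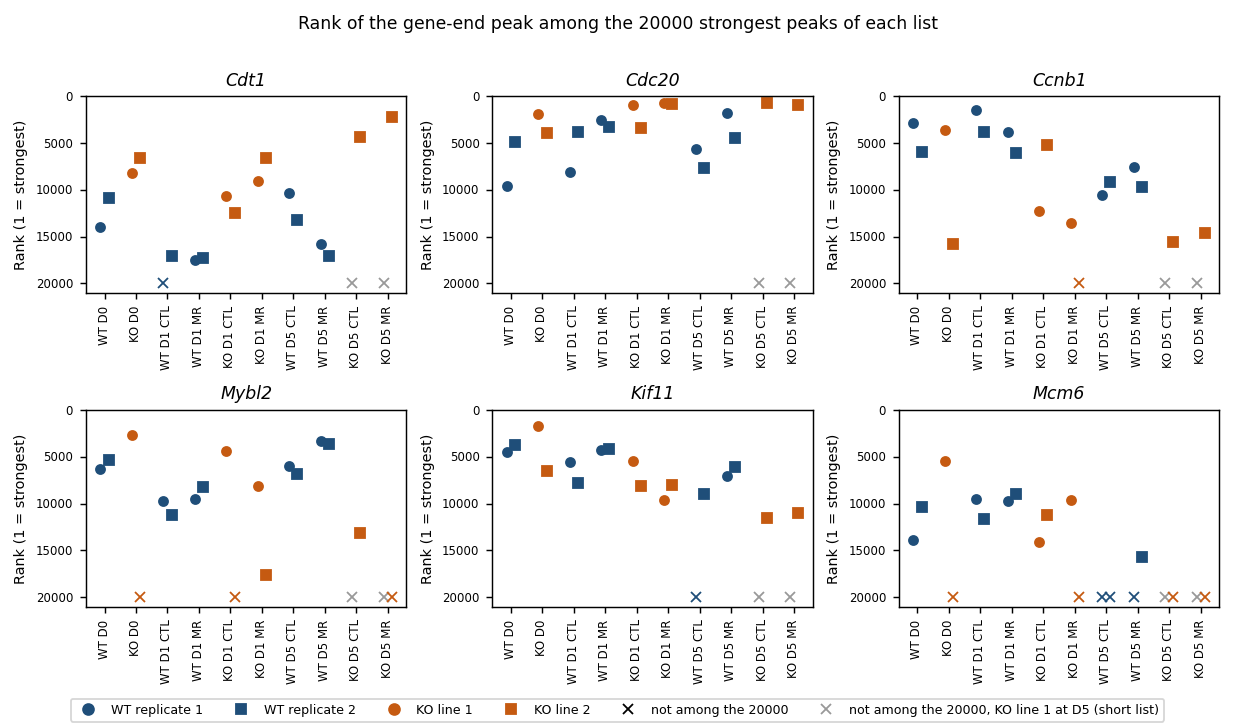
Rank of the gene-end peak among the 20000 strongest peaks of each list (vertical axis, 1 at the top is strongest) in each library of the 10 groups for 6 members. Blue is WT, orange KO, circles are replicate or line 1, squares replicate or line 2, and crosses mark genes outside the 20000; KO points of Cdt1 and Cdc20 lie above the WT points of the same condition, those of Ccnb1 lie below at D1 and D5, and Mcm6 is outside the 20000 in both WT D5 CTL libraries.

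The other genes of the 2 programmes, from lists that share no member, were read in the same way. Of 38 other replication genes, 64.5% ± 1.86 were called in WT D5 CTL and 78.9% ± 0 in WT D5 MR. Of these, 4 were called in neither D5 CTL library and both D5 MR libraries: Gins3, Rfc2, Chaf1b and Tipin (10.5%). Of 43 other mitosis genes, 82.6% ± 1.64 were called in WT D5 CTL and 90.7% ± 0 in WT D5 MR, and 0 showed that pattern. On rank, KO against WT passed for 1 of 27 testable replication genes, Pold2, and for 4 of 37 testable mitosis genes, Ndc80, Spc24, Ncapd2 and Plk4, beside the same 12.5% of all genes.

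The promoters of the members divided by role in a way the list did not use. Windows of 300 bases, 250 before and 50 after the annotated start, were found for 35 members and 17274 genes and searched on both strands. An E2F-like element, any of TTTCCCGC, TTTGGCGC, TTTCGCGC and TTCCCGCC, which can overlap, was present in 13 members (37.1%) and in 5.27% of all genes. Among licensing and fork genes 12 of 18 held one, and among cyclins, kinases and spindle genes 1 of 15, Cdk1. TTTGAA was present in 11 members (31.4%) and 17.98% of all genes. It was found in 10 of 15 cyclin, kinase and spindle genes and in 1 of 18 licensing and fork genes, Mcm2. CCAAT was present in 26 members (74.3%) and 42.7% of all genes, in 13 of 15 and 13 of 18 of the same sets.

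Of the genes printed above, Cdt1 held TTTGGCGC 33 bases after its start, outside the printed bases, and Pole2 held it on the other strand 11 bases after its start. The other lists showed 12 of 31 replication genes with an E2F-like element and 6 of 31 with TTTGAA, and 4 of 35 and 23 of 35 for mitosis genes. Median GC content of the members' windows was 57.7%, and 56.3% for all genes, with a median of 24 and 14 CpG dinucleotides.

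Peaks inside the bodies of members, away from either end, were fewer than in genes at large. In WT D0, 13.6% of members had such a peak in each library, against 30.5% and 33.3% of all genes. In WT D5 CTL 4.55% of members had one in each library, against 19.99% and 18.8%. In KO D0 line 1 the shares were 36.4% and 36.5%. Gene length differs between members and other genes and was not taken into account.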

How the data were processed

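ATAC-seq peak lists of 20 C2C12 libraries, 1 list each, were used as deposited. Tagmentation of lysed cells, 10 cycles of PCR and paired-end sequencing preceded them, per the labels' protocols. The build is GRCm38, per the submitters' processing notes. The aligner, peak caller and treatment of duplicates and of the transposase offset are not given in the sources used here, so their effect on the lists was not tested. Each peak carries the authors' deposited score (10 times the −log10 q-value, without decimals), a deposited fold enrichment (a ratio), and the authors' deposited −log10 p-value and −log10 q-value. No list was identical to another, and lists were called per library.

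Read totals were not used here. The background of each library was solved from its commonest pair of fold and −log10 p, assuming a fold of (k + 1)/(λ + 1) and a Poisson p-value, and it covers no other error.

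Gene ends came from a RefSeq table of GRCm38.p6 (21631 protein-coding genes of chromosomes 1 to 19 and X), and promoters from RefSeq (35 of 44 members). Peaks were ranked by −log10 p within a list. Calls and ranks were tested per gene by a two-sided exact permutation of libraries within strata of day, medium and genotype, with Benjamini-Hochberg adjustment over genes whose values allow p of 0.05 or lower, at a threshold of 0.05. Arrangements numbered 1944 for genotype, 432 for medium, 324 for D5 against D1 and 36 for D1 against D0. The tests were tried on simulated data with 200 changed genes. Libraries were drawn independently, without the correlation within KO lines. For calls, the changed genes came from those called in nearly all libraries and were set uncalled in every library of the first group. After adjustment, calls recovered 198 of them for genotype, 189 for medium and 191 for D5 against D1. These counts hold for such complete changes and do not give the power of the test on these data. Ranks recovered 141 for genotype, and 0 for medium and 0 for D5 against D1. In these last 2, 194 and 190 changed genes had an unadjusted exact permutation p under 0.05. That 0 members passed on ranks for medium or day therefore does not show an absence of change. The main tests did not pair libraries, and KO libraries were paired by line only in the replicate block, an alternative. Deviations of the same KO line correlated at 0.323 to 0.438 over 3 pairs of groups (3455 genes). Same-numbered WT libraries correlated at -0.0612 to 0.0892 over 10 pairs and share only a number. The members, the other lists and the tests were chosen with earlier results of these data known. Genes were named when they were called in WT D5 MR and not in WT D5 CTL or the reverse, were called in none or under 50% of 18 libraries, passed a test on calls, were among the 5 of smallest p in a direction of a rank contrast or the 5 strongest or weakest by median rank, or were the best known of a role. Python 3.11.15, numpy 2.4.6, pandas 2.3.3, scipy 1.17.1 and matplotlib 3.10.9 were used.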

Additional observations from a re-analysis of the deposited data

Results flagged for a closer look

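Aurkb and Top2a, 2 members, moved in opposite ways with the medium at D5 in the genotypes: in WT both were called in the 2 D5 MR libraries and in neither D5 CTL library, and in KO line 2 both were called in D5 CTL and not in D5 MR. Read by genotype, the same 2 genes were called in KO line 2 and not in WT in D5 CTL, and in WT and not in KO line 2 in D5 MR. Among all genes 266 (1.23%) showed this pattern. The difference was not tested, since KO rests on 1 library per medium. Background in those KO line 2 libraries was 1.84 in CTL and 1.42 in MR, and 5.17 to 5.88 in the 4 WT libraries. List length in KO line 2 fell from 29963 peaks in CTL to 22062 in MR. In WT it rose from 22465 and 20847 peaks to 39538 and 39263. The part of background or list length in the pattern was not tested. Among the 20000 strongest peaks of each list, Aurkb kept the pattern. Top2a was then outside the list in all 4 WT D5 libraries, so it showed no difference between media in WT.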

How the results depend on the processing

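The alternatives were gene windows of 500 bp and 2 kb, the start end alone, a minimum −log10 q of 2, 20000 peaks per list, all 20 libraries, ordering by fold, 10000 peaks per list, a replicate block and leaving out each replicate or line. For D5 against D1, all 20 libraries gave 3 of 5 testable members on calls (Tyms, Plk1 and Aurkb), beside 1138 of 1788 testable genes. That setting adds the sparse D5 lists of KO line 1, where only 2 and 4 members were called, so most genes count as uncalled at D5 there. Leaving out a replicate or line gave 0 to 1 (Tyms, without KO line 1). For ranks of KO against WT the 3 members became 0 to 3 with a replicate or line left out, where fewer arrangements remained, and Ccnb1 had a difference of 2842 (adjusted exact permutation p = 0.0733) with 10000 peaks. The mean number of members called in KO D5 CTL, 19.5 over both lines, was 2 to 37 for single lines, and in KO D5 MR, 18, it was 4 to 32, an alternative chosen after seeing the data. The members called in WT D5 MR and not in WT D5 CTL numbered 8 at a −log10 q of 2 or more (5.87% of all genes), and 7 to 9 from single replicates (9.07% and 10.4% of all genes). At 20000 peaks per list the pattern over all genes turned from 1280 against 33 in the reverse to 276 against 599. The mean number of members called at D0 turned from 41.5 in WT and 37.5 in KO to 31 and 32.5 at that length.

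With the replicate block, pairing KO by line and WT by number, 31 members were testable on ranks for medium and 27 for D5 against D1, and 0 passed, at smallest exact permutation p of 0.0156 and 0.0312. On calls, and for D1 against D0, the block left 0 members testable and says nothing. No paired analysis was possible for KO against WT because the lines belong to KO alone. Over all genes, 52 passed on calls for KO against WT, with 0 at 500 bp or at 20000 peaks, 14 at the start end alone, 18 at −log10 q of 2 or more and 30 with all 20 libraries. On ranks 994 became 558 with 10000 peaks. For D5 against D1 on calls, 0 genes became 1138 with all 20 libraries, 291 without KO line 1 and 36 of 41 testable with the block.

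Peak lists hold no read counts, so a missing peak is not shown to be closed chromatin, and depth limits most what KO line 2 can show. Exact p-values of 18 libraries are coarse, and a small number of changed ranks for medium or day cannot pass the adjusted threshold.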
